A study of Saccharomyces cerevisiae with 12 samples.

Results

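The genes described here are the 56 genes of budding yeast, Saccharomyces cerevisiae, that encode the proteins of the small subunit of the cytosolic ribosome, RPS0A to RPS31. They were chosen by their systematic names, with no measured value in the choice, from the 7127 features counted in each library, and all 56 passed the filter on low counts. They lie on 14 chromosomes and encode 32 proteins, of which 24 come from a pair of paralogs named A and B and 8 from a single gene. Messenger RNA was sequenced from 12 cultures in 4 groups of 3 biological replicates. The WT strain is of the YEF473A background, which some labels spell YEF4734A. The H3i strain, DGS200.1, was made from it by knocking out HHT1, a gene for histone H3, and by placing HHT2, the other H3 gene, under the Gal1 promoter, which galactose turns on and glucose shuts. Each strain was sampled in YPGal, the galactose medium, and after a switch to YPD, the glucose medium, so the H3i strain in YPD is meant to lose H3 while WT in YPD sees the change of sugar alone. No source used here states how long cells stayed in YPD, H3 protein was not measured, and H3i is represented by 1 strain.

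The small subunit binds the messenger RNA and decodes it. Its proteins are made in step with those of the large subunit, and in yeast their genes are among the most transcribed by RNA polymerase II. The factor Rap1 binds upstream of most of them and recruits Fhl1 and Ifh1, and the TOR and protein kinase A pathways raise their transcription when sugar and nitrogen are plentiful. The study's title names Rap1 binding under H3 depletion as its subject.

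The libraries of replicate 1 were the shallowest, with gene totals of 2176277 to 2525223. Those of replicate 3 held 8649749 to 11628815 and those of replicate 2 held 40950610 to 52278567. A level in CPM is a count scaled to a gene total of 1e6. The H3 genes followed the labels. HHT1 was at 634 to 1329 CPM in WT and at 0 to 3.34 CPM in H3i, and HHT2 in H3i was at 2284 to 4353 CPM in YPGal and at 14.7 to 30.3 CPM in YPD. Replicate 2 had lost the counts of some genes: 14 of the 56 members were at under 0.1 of their mean in replicates 1 and 3 in at least 1 group, as with RPS4A at 2.88 CPM in H3i YPGal against 1647 and 696 CPM. The tests therefore rest on the 8 libraries of replicates 1 and 3, n = 2 a group, with a term for the kit, which here is also the replicate. The 2 WT libraries of replicate 3 stood apart in their markers, with HIS3 at 22.7 and 21.9 CPM against 0 elsewhere and the alpha-cell pheromone gene MF(ALPHA)1 at 2464 and 2325 CPM, so counts of calls are also given without them.

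The promoters were read first for what the members share in sequence. In the 500 bases before the start codon, the letters CCNTACA on either strand, the core of the Rap1 site, were present in 32 of 56 members (57.1%). The same letters were present in 60.5% of the 81 large subunit genes and in 952 of 6000 coding genes (15.9%). At least 2 cores were present in 15 members (26.8%), against 1.82% of all coding genes. The core nearest the start codon ended at a median of 296.5 bases from it, and in 27 of the 32 members between 150 and 450 bases. The Fhl1 core GACGCA was present in 10.7% of members and 10.9% of all coding genes. The Reb1 letters TTACCCG were present in 3.57% and 10.1%. A match is a run of letters, not a measured binding site. The window is set by the start codon and not by the start of the transcript, so it can hold transcribed bases. The stretches of 100 bases below lie around the Rap1 core of 4 genes whose changes are described further on, with the core in capitals, on the strand of the gene and 5′ to 3′, from RefSeq R64, the assembly that sacCer3 names.
RPS21A (chrXI:551390-551489, plus strand): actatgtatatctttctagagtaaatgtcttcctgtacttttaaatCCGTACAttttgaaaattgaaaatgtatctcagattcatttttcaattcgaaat
RPS21B (chrX:157552-157651, minus strand): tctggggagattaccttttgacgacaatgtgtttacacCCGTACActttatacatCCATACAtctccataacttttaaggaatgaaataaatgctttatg
RPS14A (chrIII:178447-178546, minus strand): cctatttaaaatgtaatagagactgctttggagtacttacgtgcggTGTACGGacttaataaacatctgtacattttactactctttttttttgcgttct
RPS31 (chrXII:498641-498740, plus strand): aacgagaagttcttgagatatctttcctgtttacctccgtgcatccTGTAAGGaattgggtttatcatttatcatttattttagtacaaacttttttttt
RPS21A and RPS31 are shown as members near opposite ends of the range of change, and RPS21B and RPS14A as paralogs of members at its ends, chosen after their values were seen. RPS22B and RPS14B held no core in this window. RPS21B holds 2 cores within the stretch, RPS31 and RPS14A carry the core on the opposite strand, and RPS21A holds 1.

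Together the small subunit genes took 4.74%, 5.50% and 4.66% of gene counts in WT YPGal (replicates 1, 2 and 3) and 8.74%, 8.93% and 6.51% in WT YPD. In H3i they took 5.53%, 6.23% and 3.33% in YPGal and 1.40%, 1.83% and 1.48% in YPD. The H3i YPD libraries were thus the lowest of all 12, the WT YPD libraries were the highest, and the YPGal libraries of the strains overlapped. The WT means were 4.97% ± 0.464 in YPGal and 8.06% ± 1.35 in YPD, and the H3i means 5.03% ± 1.51 and 1.57% ± 0.229 (SD, n = 3). The 81 large subunit genes moved alongside, and the ratio of small to large subunit counts stayed between 0.804 and 0.933 in the 12 libraries. These shares are of bulk RNA, in which fewer cells with an mRNA, less of it per cell and more of other RNA cannot be told apart.

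**Figure D1:**
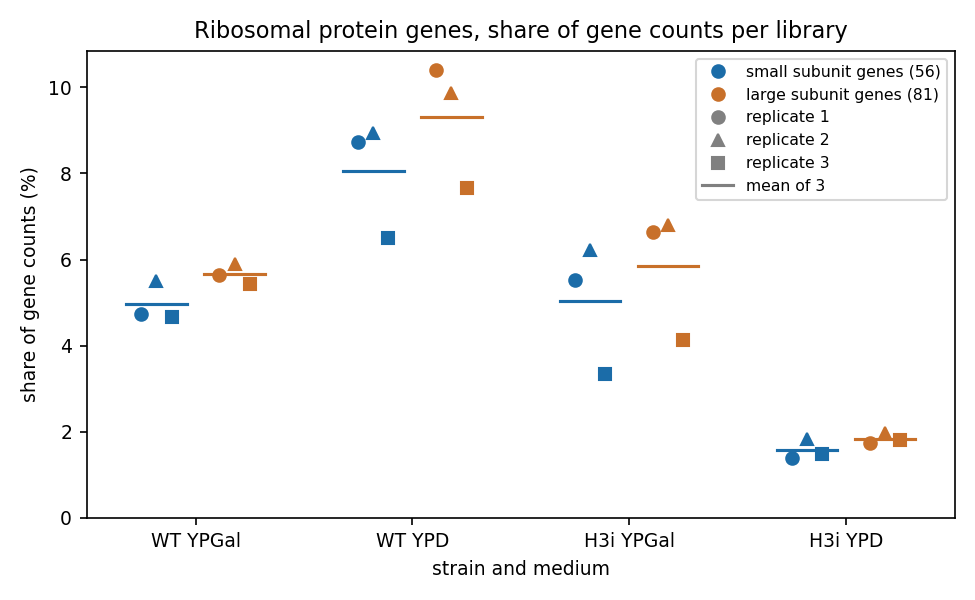
Share of gene counts (percent, y axis) held by the 56 small subunit genes and the 81 large subunit genes in each of the 12 libraries, by strain and medium (x axis), with symbols for the replicate and a line at the mean of 3. The small subunit share is 6.51% to 8.93% in WT YPD and 1.40% to 1.83% in H3i YPD.

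In H3i, 55 of the 56 genes fell on the switch to YPD and none rose. A gene is called where the Benjamini-Hochberg adjusted p of edgeR's quasi-likelihood test over 6354 genes is under 0.05, and 22.2% of all genes tested were called lower and 21.4% higher in this comparison. The log2 fold changes of the 56 ran from −2.98 to −0.41 with a median of −2.00, against a median of 0.03 over all genes tested. Adjusted p ranged from 0.00164 to 0.152 (edgeR), and the member not called is RPS14B. Of the 81 large subunit genes 76 were called lower, with a median of −1.96. In replicates 1 and 3, 54 of the 56 members had both H3i YPD libraries below both YPGal libraries, the exceptions being RPS14B and RPS28B, where 19.3% of all genes tested did. With replicate 2 included the count was 35, against 7.15% of all genes. The fit of all 12 libraries with a replicate block called 40 members (background 4.96%). That with only the kit term called none, with 0.0624% of all genes called lower. In it 41 members had an unadjusted p under 0.05, as had 697 of the 6408 genes tested. Without the block the 8 libraries gave 39 (9.22%), DESeq2 gave 55 (23.1%), and a fit without both WT libraries of replicate 3 gave 54 (24.5%). Library totals in place of TMM factors gave 54 members, with a median of −1.60, where 13.8% of all genes were called lower and 31.9% higher. Of the 15 calls that the block fit loses, 14 are the members with lost counts in replicate 2, and the other is RPS28B.

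**Figure D2:**
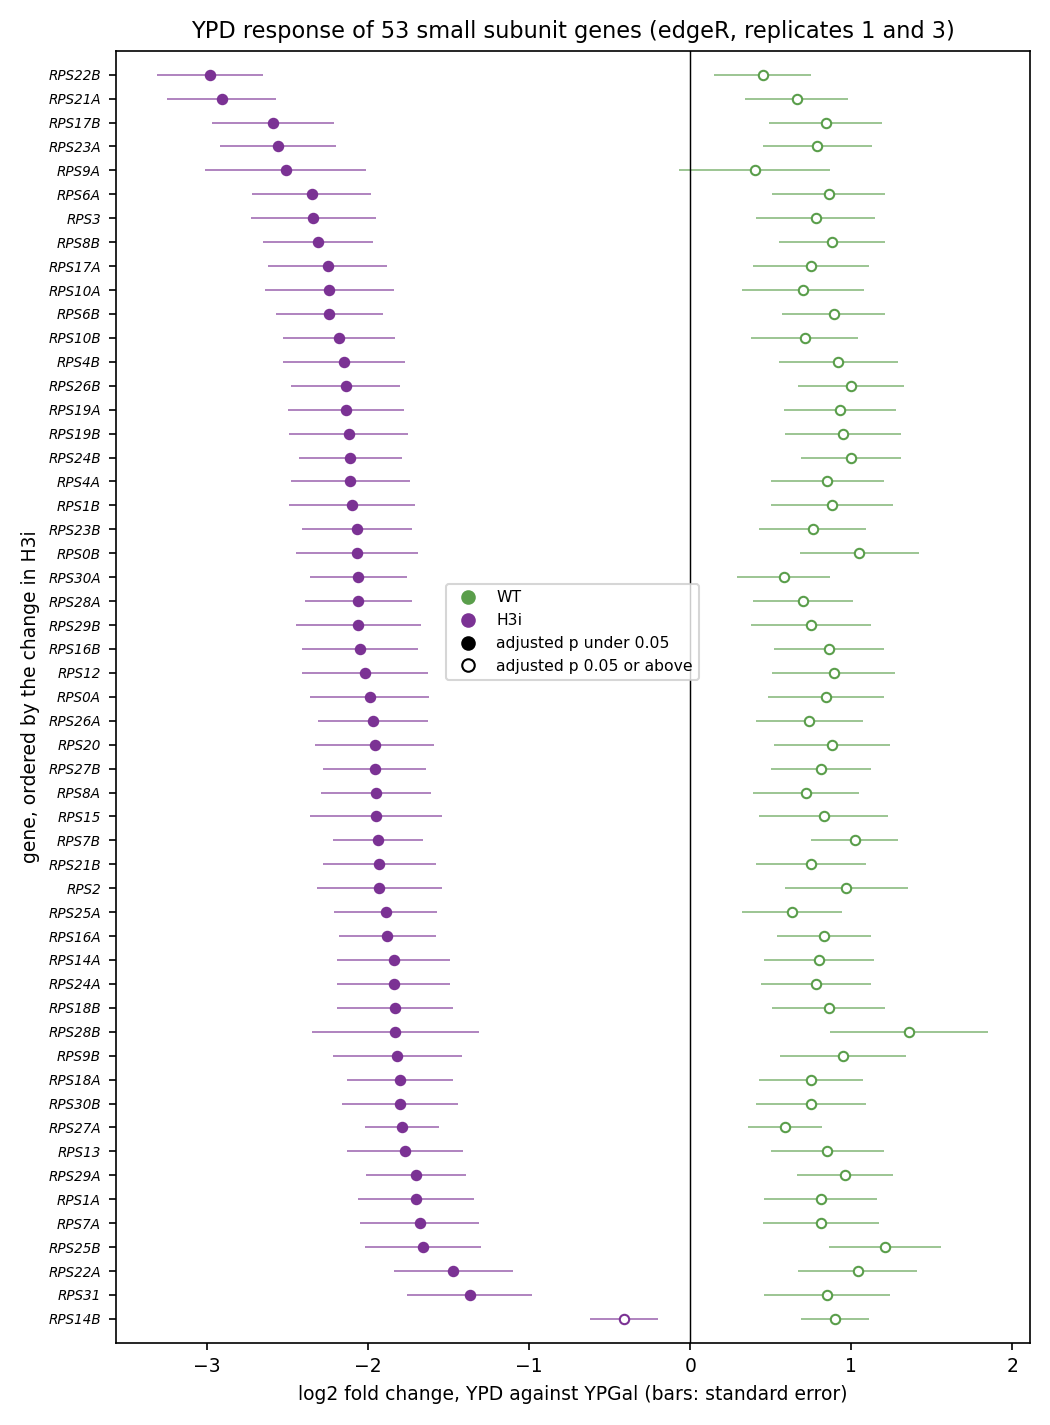
Log2 fold change of YPD against YPGal (x axis; bars are standard errors) for 53 of the 56 genes (y axis, ordered by the change in H3i), from the 8 libraries of replicates 1 and 3. Filled points passed an adjusted p of 0.05 in edgeR; those in H3i run from −2.98 to −1.37, RPS14B at −0.41 does not pass, and all 53 are above 0 in WT with none passing.

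The lowest fold change was that of RPS22B (YLR367W, chrXII:856442-857317, 1 intron in the coding sequence), which encodes Rps22, or uS8, a protein of the body of the subunit. In H3i its level was 430, 843 and 556 CPM in YPGal and 52.8, 102 and 118 CPM in YPD, with no overlap (log2 fold change −2.98 ± 0.33 SE, edgeR adjusted p = 0.00164). In WT it was 383, 778 and 510 CPM in YPGal and 478, 701 and 598 CPM in YPD, which overlap. The gene shares its strand with the small nucleolar RNA gene SNR44 inside it, so reads of both can be counted together, and it is the 1 member that overlaps another RefSeq gene. RPS21A (YKR057W, chrXI:551657-552242), for eS21 at the solvent side of the body, was at 589, 1100 and 298 CPM in H3i YPGal and at 75.4, 149 and 73.4 CPM in H3i YPD. All 3 YPD values were below all 3 YPGal values (−2.91 ± 0.34, edgeR adjusted p = 0.00185). RPS17B, for eS17 of the head, was at 706, 1505 and 363 CPM in YPGal and at 101, 306 and 122 CPM in YPD. RPS23A, for uS12, which lies by the decoding centre, was at 885, 1832 and 554 CPM in YPGal and at 143, 429 and 168 CPM in YPD. Both fell, with log2 fold changes of −2.59 ± 0.38 and −2.56 ± 0.36, and in each the YPD values lay below the YPGal values of all 3 replicates.

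At the other end stood RPS14B (YJL191W, chrX:73787-74611, 1 intron in the coding sequence), for uS11 of the platform. Its product is known to bind the RPS14B pre-mRNA and to limit its own synthesis. In H3i its level was 165, 118 and 209 CPM in YPGal and 177, 56.2 and 193 CPM in YPD. The replicate 1 value was higher in YPD and the other two were lower, so the groups overlap (log2 fold change −0.41 ± 0.21, edgeR adjusted p = 0.152). With library totals in place of TMM factors the value was −0.01. RPS31 (YLR167W, chrXII:498947-499405), for eS31, made as a fusion with ubiquitin, was at 2322, 4206 and 1550 CPM in H3i YPGal and at 971, 2017 and 977 CPM in H3i YPD. Within each replicate YPD was lower, though the replicate 2 YPD value was above the replicate 3 YPGal value. The fold change was −1.37 ± 0.39 (edgeR adjusted p = 0.0239), and the call was lost without any 1 of the 4 H3i libraries of replicates 1 and 3. RPS22A, RPS25B and RPS7A fell with log2 fold changes of −1.47 ± 0.37, −1.66 ± 0.36 and −1.68 ± 0.37 (edgeR adjusted p = 0.0158, 0.0087 and 0.00878). All 3 calls were lost when the replicate 1 library of H3i in either medium was left out, and those of RPS22A and RPS7A also without the replicate block. RPS22A was at 847 and 430 CPM in H3i YPGal and at 299 and 289 CPM in H3i YPD in replicates 1 and 3, and at 0.87 and 1.93 CPM in replicate 2. RPS25B, for eS25, which is needed by some internal ribosome entry sites, was at 392 and 249 CPM in YPGal and at 117 and 153 CPM in YPD, with no overlap between these 4 libraries and 4.69 and 1.56 CPM in replicate 2. RPS7A, for eS7, was at 1051, 1871 and 565 CPM in YPGal and at 318, 681 and 331 CPM in YPD, where the replicate 2 YPD value lay above the replicate 3 YPGal value.

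The 8 genes without a paralog all fell in H3i, with log2 fold changes from −2.34 to −1.37 and a median of −1.96. RPS3, for uS3 at the entry of the mRNA channel, was at 2109, 3053 and 1358 CPM in H3i YPGal and at 421, 280 and 461 CPM in H3i YPD (−2.34 ± 0.39, edgeR adjusted p = 0.0036). The groups did not overlap, and the replicate 2 value was the lowest of the YPD values. RPS20, for uS10 of the head, was at 1517, 1987 and 831 CPM in YPGal and at 400, 501 and 371 CPM in YPD (−1.96 ± 0.37, edgeR adjusted p = 0.0053). The groups of RPS20 did not overlap. RPS2, for uS5, whose mutants misread codons, was at 1685, 2183 and 651 CPM in YPGal and at 438, 644 and 313 CPM in YPD (−1.93 ± 0.39, edgeR adjusted p = 0.00711). RPS12, for eS12 of the beak of the head, was at 1902, 1858 and 692 CPM in YPGal and at 480, 839 and 303 CPM in YPD (−2.02 ± 0.39, edgeR adjusted p = 0.00571). RPS12 in replicate 2 in YPD was above its replicate 3 YPGal value, whereas all 3 RPS2 values in YPD were below the YPGal ones. RPS13, for uS15, was at 1334, 1333 and 708 CPM in YPGal and at 371, 638 and 379 CPM in YPD (−1.77 ± 0.36, edgeR adjusted p = 0.00718). RPS15, for uS19, which is needed for export of the pre-40S particle from the nucleus, was at 1402, 1332 and 492 CPM in YPGal and at 331, 467 and 222 CPM in YPD (−1.95 ± 0.41, edgeR adjusted p = 0.00799). In both genes every YPD value was below every YPGal value. Without the replicate block the calls of RPS2, RPS12, RPS13, RPS15 and RPS31 were lost, while those of RPS3 and RPS20 stood.

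In WT the same switch of medium gave higher values, none of which passed the test over all genes. All 56 log2 fold changes were above 0, from 0.40 to 1.36 with a median of 0.84, against 0.01 over all genes tested. By edgeR none of the 56 was called and adjusted p ranged from 0.107 to 0.681. An unadjusted p under 0.05 was seen in 32 members and in 1268 of the 6354 genes tested. Of all genes tested 0.0944% were called higher and 0.677% lower. DESeq2 on the same libraries called 32 members higher, where it called 4.85% of all genes, and a fit without both WT libraries of replicate 3 called 1 (2.29%). In replicates 1 and 3, 46 members had both YPD libraries above both YPGal libraries, against 9.21% of all genes, and with replicate 2 this held for 22 members, against 3.04%. The highest value was that of RPS28B (YLR264W), for eS28, with 99.8, 163 and 90.4 CPM in WT YPGal and 338, 736 and 163 CPM in WT YPD (1.36 ± 0.49, edgeR adjusted p = 0.201). The groups overlap narrowly at 163 CPM, where before rounding the lowest YPD value was just below the highest YPGal value. In H3i RPS28B was at 167, 230 and 29.6 CPM in YPGal and at 39.5, 84.1 and 20.8 CPM in YPD. The groups overlap there, and replicate 3 was low in both media (−1.83 ± 0.52, edgeR adjusted p = 0.0234). This call was lost with library totals, without the replicate block and with all 12 libraries under either term. RPS3 in WT was at 1906, 2552 and 1901 CPM in YPGal and at 3305, 3680 and 2561 CPM in YPD, with every YPD value above every YPGal value (0.78 ± 0.37, edgeR adjusted p = 0.289). RPS14B in WT was at 161, 192 and 199 CPM in YPGal and at 280, 321 and 314 CPM in YPD. Its groups did not overlap and its adjusted p of 0.107 was the lowest of the members in WT (0.90 ± 0.21, edgeR).

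The opposite directions were set against each other by the difference of the YPD responses, H3i minus WT. All 56 members were called lower by edgeR in this term, with values from −3.56 to −1.31, a median of −2.85 and adjusted p from 0.00721 to 0.0233, where 14.5% of all genes tested were called lower and 13.1% higher. RPS21A had the lowest value (−3.56 ± 0.46, edgeR adjusted p = 0.00721) and RPS14B the highest (−1.31 ± 0.30, edgeR adjusted p = 0.0181). The RPS14B call was lost with library totals (−0.74, adjusted p 0.0715) and without WT YPD replicate 1, H3i YPGal replicate 1 or H3i YPGal replicate 3 (adjusted p 0.0767, 0.077 and 0.0746). Without the replicate block in the 8 libraries no member was called (adjusted p 0.0527 to 0.193, edgeR), and 0.0157% of all genes were called lower. All 56 members had an unadjusted p under 0.05 there, as had 1589 of the 6354 genes tested. With all 12 libraries and the block 40 were called, against 2.45% of all genes. With all 12 and the kit term none was, against 0.0156%. In that fit 38 members had an unadjusted p under 0.05, as had 454 of the 6408 genes tested. DESeq2 called 56 (18.4%), and a fit without both WT libraries of replicate 3 called 55 (15.0%).

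Between the strains in YPGal, where both have H3 messenger RNA, edgeR called no member and no other gene. Even HHT1, knocked out in H3i, was not called, at 881 and 689 CPM in WT against 3.34 and 0.0997 CPM in H3i (replicates 1 and 3). The absence of calls therefore does not show that the strains are alike in YPGal. No member had an unadjusted p under 0.05, against 114 of the 6354 genes tested. DESeq2 called no member either. The log2 fold changes of H3i against WT ran from −0.43 to 0.28, with a median of −0.20. That sign depends on single libraries: the median was 0.18 without H3i YPGal replicate 3, 0.09 without WT YPGal replicate 3 and −0.56 without H3i YPGal replicate 1, and 50, 36 and 3 members changed sign. In YPD all 56 members were lower in H3i, with log2 fold changes from −3.86 to −1.29, a median of −2.97 and edgeR adjusted p from 8.18e-04 to 0.00432. Of all genes tested 23.7% were called lower there and 26.0% higher. This comparison shares its H3i YPD libraries with the H3i response and its WT YPD libraries with the WT response, so its values are not separate evidence. RPS21A was at 817, 1148 and 635 CPM in WT YPD against 75.4, 149 and 73.4 CPM in H3i YPD (−3.86 ± 0.36, edgeR adjusted p = 8.18e-04). The level in WT was above that in H3i in every pairing of libraries. RPS14B was at 280, 321 and 314 CPM against 177, 56.2 and 193 CPM, also without overlap (−1.29 ± 0.21, edgeR adjusted p = 0.00233). Over all 3 replicates 51 members had every H3i YPD library below every WT YPD library, against 7.40% of all genes, and the 5 that did not, RPS4A, RPS4B, RPS19B, RPS24B and RPS25B, are among those with lost counts in replicate 2. All 56 calls stood without any 1 of the 8 libraries, with DESeq2 (25.7% of all genes) and without both WT libraries of replicate 3 (20.4%). Without the replicate block 55 were called (11.7%), and with all 12 libraries 45 with the block (5.77%) and 2 with the kit term (0.0624%).

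Summing the counts of paralogs gives the RNA for each protein. In replicates 1 and 3 all 32 proteins had a higher CPM in WT YPD than in WT YPGal, with median log2 ratios of 0.90 and 0.47. In H3i all 32 had a lower one in these replicates, with medians of −2.00 and −1.19. The ratios of single proteins in H3i spanned −2.57 to −1.26 for replicate 1 and −1.56 to −0.67 for replicate 3. Replicate 2 has no usable value for Rps4 or, in H3i, for Rps25, whose genes had both lost their counts: Rps4 was at 5.11 and 2.91 CPM in H3i. Strain by strain, proteins with a gene under 0.1 of its mean in replicates 1 and 3 were then left out. Of the rest, 25 of 25 were higher in WT YPD in replicate 2 (median 0.53) and 20 of 20 lower in H3i YPD (median −1.63, from −3.45 to −1.06). The 25 include Rps27 and Rps22 (1.99 and 1.72), whose RPS27B and RPS22A were at 0.116 and 0.200 of that mean in WT YPGal. RPS22B alone was at −0.15 in WT in replicate 2. Rps31 had the value nearest 0 in H3i in replicates 1 and 3. Gene by gene, 42 members stayed in replicate 2 at 0.1 or more of their mean in replicates 1 and 3 in every group. All 42 were lower in H3i YPD in that replicate and 40 were higher in WT YPD. Some were still well below that mean, such as RPS0B at 0.364 of it in WT YPGal and RPS14B at 0.304 in H3i YPD.

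**Figure D3:**
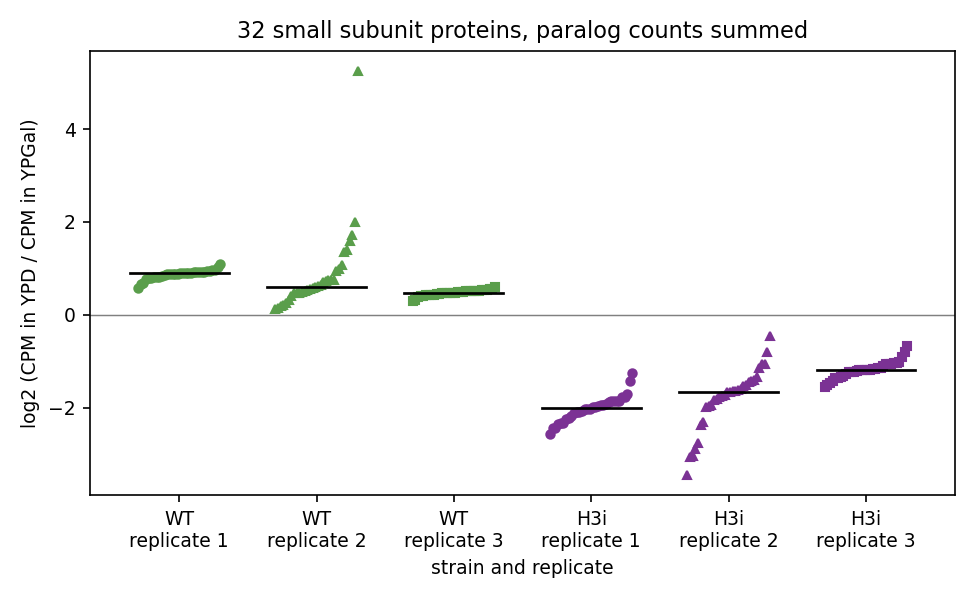
Log2 ratio of CPM in YPD to CPM in YPGal (y axis) for each of 32 small subunit proteins, with the counts of paralogs summed, by strain and replicate (x axis); within a column points are ordered by value and the line is the median. In replicates 1 and 3 all points are above 0 in WT, with medians of 0.90 and 0.47, and below 0 in H3i, with medians of −2.00 and −1.19. The replicate 2 columns include 7 proteins in WT and 12 in H3i with a gene at under 0.1 of its mean in replicates 1 and 3.

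Most paralog pairs had similar changes. The A and B genes of a pair encode the same or nearly the same protein, and their coding sequences are 84.3% to 99.2% identical. Of the 24 pairs, 9 had more A than B counts in all 8 libraries of replicates 1 and 3 and 4 had more B. RPS9B and RPS27B stood at least 2-fold above their A paralogs in all 8, and RPS28A at least 2-fold above RPS28B. In 20 pairs the log2 fold changes of A and B in H3i differed by −0.70 to 0.40 (A minus B), and the other 4 pairs differed by more, among them Rps22, Rps14 and Rps21. Between Rps22 paralogs no window of 50 bases is shared, nor between Rps21 paralogs, while 11.8% of the windows of RPS14A are shared. Reads aligned to more than 1 place made up 23.5%, 18.5% and 21.5% of the H3i YPD libraries and 6.68% to 14.9% of the other 9. Their part in the changes was not tested. Windows were taken from the coding sequences alone. In 9 pairs none of 50 bases is shared, and the changes of these pairs were not compared with those of the others.

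In the Rps22 pair RPS22A gave 66.3% of the counts of the pair in H3i YPGal and 85.0% in H3i YPD in replicate 1, and 43.6% and 71.0% in replicate 3. The log2 ratio of A to B was 1.52 and 1.66 higher in YPD in these replicates, with a difference of fitted fold changes of 1.51. In WT the difference was also above 0, at 0.59, and RPS22A gave 64.2% and 60.3% of counts in YPGal and 76.9% and 66.2% in YPD. Replicate 2 gives no usable ratio for this pair, because RPS22A was at 0.87 and 1.93 CPM in H3i. The Rps14 pair went the other way. RPS14A was at 1254, 1454 and 721 CPM in H3i YPGal and at 352, 457 and 344 CPM in H3i YPD, without overlap (−1.84 ± 0.35, edgeR adjusted p = 0.00557), while RPS14B was not called, as given above. The RPS14A call was lost without the replicate block. The share of RPS14A in H3i was 88.4%, 92.5% and 77.5% in YPGal (replicates 1, 2 and 3) and 66.6%, 89.0% and 64.1% in YPD, lower in each replicate. In WT it was 82.8% to 87.1% in YPGal and 80.1% to 87.6% in YPD, and the fitted fold changes of the pair differed by −0.10.

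For Rps21, whose promoters are printed above, RPS21B was at 626, 1.41 and 356 CPM in H3i YPGal and at 148, 0.0977 and 181 CPM in H3i YPD. Replicates 1 and 3 did not overlap (−1.93 ± 0.35, edgeR adjusted p = 0.00489), and replicate 2 had lost this gene in H3i and in WT YPGal, at 41.4 CPM. In these replicates RPS21A gave 48.5% and 45.6% of the pair's counts in H3i YPGal and 33.7% and 28.9% in H3i YPD. The WT shares were 48.8% and 45.9% in YPGal and 46.3% and 45.3% in YPD. Ratios were not tested, since the pairs were picked by this measure, and those of Rps22 and Rps21 rest on replicates 1 and 3.

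**Figure D4:**
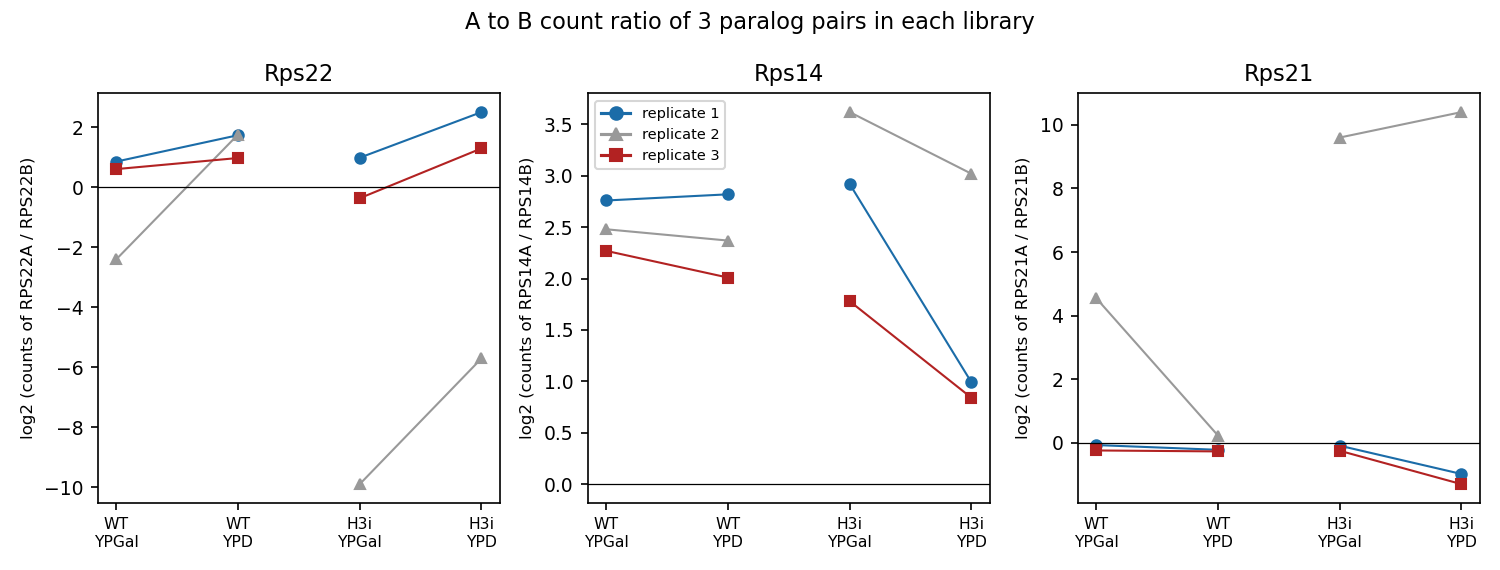
Log2 ratio of counts of the A to the B paralog (y axis, its own scale in each panel) in each library for Rps22, Rps14 and Rps21, by strain and medium (x axis); lines join the 2 media of a strain within a replicate. In H3i the ratio goes up for Rps22 in all 3 replicates, down for Rps14 in all 3, and down for Rps21 in replicates 1 and 3; replicate 2 of Rps22 and Rps21 rests on paralogs with lost counts.

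Levels were also set per coding length, so that members can be compared. Over replicates 1 and 3 the median in WT was 1886 CPM per kb in YPGal and 2917 in YPD, and in H3i it was 1668 and 562. RPS31 was the highest in all 4 groups, from 7578 CPM per kb in WT YPD to 2122 in H3i YPD, with the ubiquitin part of its reading frame counted in the length. Over the 8 libraries RPS20, RPS12 and RPS30A were among the next, at 3430, 3129 and 3026 CPM per kb, and RPS14B, RPS9A and RPS28B were the lowest at 509, 531 and 580. Across the 56 genes, which share libraries and are not independent, mean level and change in H3i had a Pearson r of −0.03 and a Spearman rho of 0.10.

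The medians of the H3i change lay close together across other features of the genes. They were −2.01 for the 22 genes of head proteins, −2.02 for the 28 of the body and −1.91 for the 6 of the platform. The 36 members with an intron in the coding sequence had a median of −2.06 and the 20 without one −1.96. Introns outside the coding sequence were not counted. The 24 A paralogs had a median of −1.98 and the B paralogs −2.06. By Rap1 cores in the promoter window the medians were −2.02 with none (24 genes), −1.96 with 1 (17 genes) and −2.05 with at least 2 (15 genes). The members with no core held both ends of the range, RPS22B and RPS14B.

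Among 9 regulators of these genes, a list drawn up with earlier results known, edgeR called 1 lower in H3i and none higher, where 22.2% of all genes were called lower and 21.4% higher. It was HMO1, for a high mobility group protein bound at many ribosomal protein promoters, at 329, 539 and 445 CPM in H3i YPGal and at 98.8, 81.1 and 143 CPM in H3i YPD (−2.08 ± 0.27, edgeR adjusted p = 0.00201). In WT it was at 332, 433 and 450 CPM in YPGal and at 327, 502 and 334 CPM in YPD, which overlap. RAP1 was at 142, 178 and 197 CPM in H3i YPGal and at 173, 196 and 215 CPM in H3i YPD, higher in YPD in each replicate though the groups overlap. After TMM scaling its log2 fold change was −0.19 ± 0.23 (edgeR adjusted p = 0.52), and with library totals it was 0.21, so it has no settled sign. FHL1, IFH1 and SFP1, activators of these genes, had log2 fold changes of −0.04, 0.24 and −0.17 (0.36, 0.65 and 0.22 with library totals) and were not called under either scaling. CRF1, a corepressor that in some strains replaces Ifh1 on Fhl1, was at 18.0 and 90.7 CPM in H3i YPGal and at 112 and 155 CPM in H3i YPD in replicates 1 and 3, with 0.0669 and 113 CPM in replicate 2 (1.31 ± 0.52, edgeR adjusted p = 0.0729; with library totals 1.71 and 0.0429). With library totals edgeR also called TBF1 higher in H3i YPD (1.09, adjusted p = 0.0232) and still called HMO1 lower. Against WT in YPD, at 4.32, 12.3 and 37.2 CPM, CRF1 was higher in H3i (2.53 ± 0.55, edgeR adjusted p = 0.00697).

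Of 12 kinases of the TOR and protein kinase A pathways and their partners, 3 rose in H3i on the switch and 1 fell, shares near or below those of all genes (21.4% and 22.2%). TOR2, KOG1 and TOR1, parts of the TOR complexes, rose with log2 fold changes of 1.27, 1.12 and 0.74, and BCY1, the inhibitory subunit of protein kinase A, fell by 0.89 on the log2 scale, by edgeR, a call that library totals did not give (−0.50, adjusted p = 0.117). Of 37 genes of the small subunit processome, which makes the first precursor of the subunit in the nucleolus, 13 fell and none rose in H3i (median −0.60), against 22.2% and 21.4% of all genes, and 6 had values above 0. NOP58, SNU13 and NOP1, box C/D proteins, had −1.97, −1.86 and −1.82. Of 18 late assembly factors 7 fell and none rose (median −0.73, against the same shares of all genes), led by PNO1 at −1.39, HRR25 at −1.20 and BUD23 at −0.88. ASC1, the scaffold protein on the head of the subunit, and STM1, which clamps idle ribosomes, fell with −1.24 ± 0.38 and −1.86 ± 0.35 (edgeR adjusted p = 0.032 and 0.00552). With library totals 5 processome genes were lower and 2 higher, 1 late factor, PNO1, was lower, and ASC1 was not called (adjusted p = 0.0614, edgeR). Under that scaling 13.8% of all genes were called lower and 31.9% higher, with a median log2 fold change of 0.42 over all genes tested. Neither list was called lower more often than genes at large. Both were called higher less often, with none of the 18 late factors called higher. None of the lists had an edgeR call in WT, where all 37 processome genes had a log2 fold change above 0. There 19 processome genes and 12 late assembly factors had an unadjusted p under 0.05, as had 1268 of the 6354 genes tested.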

How the data were processed

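Read counts per gene, as the authors deposited them for each of 12 libraries, were used unchanged. The build was sacCer3 and the tools named were HISAT2, SAMtools, Picard, FastQC and DESeq2, with no version, per the submitters' processing notes. How reads were counted, and whether by strand, is not given in the sources, although the labels' protocols name stranded kits, with another extraction and kit for replicate 3. The 5 entries that name no gene held 27.5% to 38.6%, 66.3% to 74.5% and 22.0% to 33.7% of counts in replicates 1, 2 and 3 and were left out of totals and tests.

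Counts were tested by the quasi-likelihood fit of edgeR 4.0.16 under R 4.3.3, with filterByExpr and TMM factors, in 1 model of the 4 groups and the kit, on the 8 libraries of replicates 1 and 3: 6354 genes, 3 residual degrees of freedom, common biological coefficient of variation 0.273. With all 12 libraries it was 1.13. In 8 libraries the kit term is a replicate block. Replicate numbers pair the samples: the 18 same-number pairs of libraries had correlated deviations from group means (r = 0.359 to 0.798), and each of the 12 libraries was closest to those of its own number. p-values were adjusted over all genes and called under 0.05. SE is the log2 fold change over the root of F. Ratios of paralogs used a pseudocount of 0.5. Alternatives included DESeq2 1.42.0. On simulated data of 6243 genes the H3i comparison recovered 75 of 98 genes at −2 and 11 of 98 at −1, with 9 of 6047 unchanged genes called. The simulated counts had no kit or replicate effect and few changed genes, all lowered. These rates may therefore not hold for the real libraries.

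The 56 members were taken by name, and no measured value entered that rule, but they, the named members and the lists were proposed with earlier results of these data known. Named members are the 5 lowest and 5 highest in the H3i response, up to 3 extremes of the other comparisons, the 4 pairs that differ most and the 8 single genes, at 10 CPM or more; some of these are not reported here. Names, coordinates and sequences are from RefSeq R64. Counts in replicate 1 limit precision: the lowest member count was 86 there, 242 in replicate 3 and 0 in replicate 2.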

Additional observations from a re-analysis of the deposited data

Results flagged for a closer look

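The response to YPD differed between the strains in the 18 named members given here by the interaction term of edgeR, H3i minus WT on the log2 scale. None of them was called without the replicate block. The calls of RPS31, RPS22A, RPS7A, RPS15 and RPS14B were lost without WT YPD replicate 1 and without H3i YPGal replicate 1. RPS31 lost its call in further such fits, and RPS28B without WT YPD replicate 3. RPS22B, RPS21A and RPS17B were named in part as extremes of this same term. The values were −3.43 for RPS22B, −3.56 for RPS21A, −3.43 for RPS17B, −3.36 for RPS23A and −3.19 for RPS28B. The single genes had −2.90 (RPS2), −3.12 (RPS3), −2.91 (RPS12), −2.61 (RPS13), −2.78 (RPS15), −2.84 (RPS20) and −2.23 (RPS31). RPS7A had −2.48, RPS25B −2.87, RPS22A −2.51, RPS14A −2.64, RPS21B −2.68 and RPS14B −1.31.

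Outside the gene counts, reads aligned to more than 1 place were 23.5%, 18.5% and 21.5% in H3i YPD replicates 1, 2 and 3, above all libraries of the other groups in their own replicate. Reads in no feature were 5.21% and 7.34% in H3i YPD replicates 1 and 3, also above the other groups, but in replicate 2 they were 2.61% against 2.62% in WT YPGal. Their source was not tested.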

How the results depend on the processing

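In the H3i response, the difference of responses and the YPD comparison of strains, 54 to 56 members were called under RLE factors, library totals, TMM factors without ribosomal protein genes, no filter on low counts and DESeq2. Over all genes, 880 to 1507 were called lower in the H3i response. They were 465 to 1166 in the difference and 799 to 1671 between strains in YPD. The genes tested were 6354, or 6856 with no filter. All 12 libraries with the kit term gave 0, 0 and 2 members in these comparisons, and no replicate block gave 0 in the difference of responses and 39 and 55 in the others. With the replicate block and 12 libraries they were 40, 40 and 45. The shares of all genes in the fits of 12 libraries and without the block are given above with each comparison. In the WT response DESeq2 called 32 members (4.85% of all genes were higher), against 0 in the main fit. A fit of only the groups compared called 2, where 89 of 5968 genes were called higher. A fit without both WT libraries of replicate 3, chosen after seeing the data, leaves 1 WT library in each medium. Its median log2 fold change of the members was 1.10. Leaving out each library in turn leaves 1 library in a group, so medians of the log2 fold changes are given. They were −2.39 to −1.68 in the H3i response, −3.26 to −2.48 in the difference and −3.37 to −2.78 between strains in YPD. In the WT response they were 0.60 to 1.07, and between strains in YPGal −0.56 to 0.18. Some calls in the H3i response and in the difference were lost in these fits. As a share of counts outside ribosomal protein genes, the small subunit genes stood at 5.56% in WT YPGal and 9.79% in WT YPD. Library totals moved the median of all genes by 0.40 in the H3i response and by 0.60 between strains in YPD. The cause of the lost calls was not tested, beyond the larger spread with replicate 2 included. No named member changed sign where it was called.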

Other observations

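RPS14B and RPS22A, the member with the highest fold change in H3i and the third highest, are next to each other on chromosome X (73787 to 74611 and 74910 to 75302), in convergent orientation with 298 bases between them. They are the 1 pair of members that neighbour each other in the RefSeq annotation. Their log2 fold changes in H3i were −0.41 and −1.47. The pair was picked after its values were seen.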
